A study of Mus musculus with 2 samples.

Results

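The 36 genes described here encode the receptor subunits through which brain cells sense glutamate and GABA. They were taken by symbol from the 31053 genes of the count tables: 4 AMPA receptor genes (Gria1 to Gria4), 5 kainate receptor genes (Grik1 to Grik5), 7 NMDA receptor genes (Grin1, Grin2a to Grin2d, Grin3a and Grin3b), 8 metabotropic glutamate receptor genes, and the alpha (6), beta (3) and gamma (3) genes of the GABA-A receptor. All 36 were in the tables, and all carry a gene model in the annotation used here. Gria3 and Gabra3 lie on the X chromosome.

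Single cells of microdissected dentate gyrus from mice at postnatal day 2 were profiled. For the KO library the mice were hGFAP-Cre;Kdm6bF/F, in which a human GFAP promoter drives Cre recombinase in radial glia and a floxed Kdm6b gene can be deleted in their descendants. The library labelled WT came from littermate controls, whose own alleles are not given in the labels. Each library holds 2 animals, so animals cannot be told apart, and cells that do not descend from the Cre lineage keep the gene. KDM6B removes methyl groups from lysine 27 of histone H3, and the series asks what it does for neural stem cells of the hippocampus.

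Glutamate opens AMPA, kainate and NMDA receptor channels, which are tetramers of subunits from their own family. NMDA receptors need GluN1 (Grin1) with GluN2 or GluN3 subunits, and forebrain neurons of newborn rodents rely on GluN2B (Grin2b) before GluN2A (Grin2a) becomes common. GABA-A receptors are pentameric chloride channels, usually of alpha, beta and gamma subunits, and metabotropic glutamate receptors signal through G proteins.

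After filtering, 1931 KO cells and 2957 WT cells remained, with 25487578 and 31518520 UMIs. The median cell had 9267 UMIs and 3384 genes in the KO library, against 7342 UMIs and 2917 genes in the WT library. Receptor subunit genes took 44802 UMIs (0.176%) in the KO library and 52809 UMIs (0.168%) in the WT library. Each UMI marks the 3′ end of a transcript once, so levels in CPM, UMIs scaled to the depth of the cells summed, need no length correction, although capture can differ between genes. The libraries also differed in sex: 0 of 1931 KO cells (which allows up to 0.155%) and 33.3% of WT cells had a Y-linked UMI without Xist. Kdm6b itself had 1470 UMIs in the KO library and 1831 in the WT library, 57.7 and 58.1 CPM. In pyramidal neuron-like cells Kdm6b stood at 35.0 and 43.0 CPM (log2 -0.30, ratio interval 0.716 to 0.925) and in GABAergic neuron-like cells at 41.4 and 41.7 CPM. Within pyramidal clusters 0, 1 and 5 it was lower, at log2 -0.75, -0.73 and -0.76, with intervals clear of 1. Intervals were also below 1 in dividing cells (12.3 and 43.3 CPM, log2 -1.74) and neuroblast-like cells (log2 -1.16). Endothelial-like cells went the other way (log2 0.30, ratio interval 1.09 to 1.39). In astrocyte-like, ependymal-like, radial glia-like and GABAergic neuron-like cells the interval held 1. The part of cell mix in the all-cell values was not tested. Whether the counted 3′ ends lie inside the deleted part was not tested, so these counts do not check the deletion. Of the cell barcodes, 9 occur in both libraries, 6 of them among kept cells.

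With 1 library per genotype there is no test between genotypes. All values compare these libraries and not the genotypes, no difference has a replicate check, and the 95% intervals cover counting error only. Ratios are given as log2 of KO over WT CPM, and a gene is called higher or lower when it differs by at least 1.5-fold with at least 20 UMIs over both libraries. Cell classes were rebuilt from marker genes and are named with "-like". The most numerous were pyramidal neuron-like cells (616 KO and 795 WT cells in 6 clusters), which carry markers of hippocampal neurons outside the granule cell lineage. Granule neuron-like cells, which carry the defining dentate markers Prox1, Calb1 and C1ql2, numbered 30 KO and 54 WT cells. Cluster 3 (94 KO and 266 WT cells) had Prox1, Sema5a and Gal among its leading genes and stayed unnamed.

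Summed receptor subunit transcripts were highest in pyramidal, granule and GABAergic neuron-like cells among the named classes of both libraries. Their sum was 2836 CPM in KO and 2719 CPM in WT pyramidal neuron-like cells, 2800 and 2490 CPM in GABAergic neuron-like cells, and 2954 and 3341 CPM in granule neuron-like cells. Cluster 3 (1999 CPM in KO, 1775 CPM in WT) and neuroblast-like cells (1708 and 1688 CPM) came next, before Cajal-Retzius-like cells (1179 and 1275 CPM). Astrocyte-like cells reached 961 CPM in KO and 1066 CPM in WT, and endothelial-like cells, which should lack most of these genes, 46.8 and 44.1 CPM. Microglia-like cells, also outside the neural lineage, had 476 CPM in KO and 96.3 CPM in WT (77 and 16 UMIs). If these UMIs are stray RNA, the endothelial value is no upper limit for it, but their source was not tested. Median depth was 20044 UMIs in KO and 22251 in WT endothelial-like cells, and 5109 and 3635 UMIs in microglia-like cells.

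**Figure D1:**
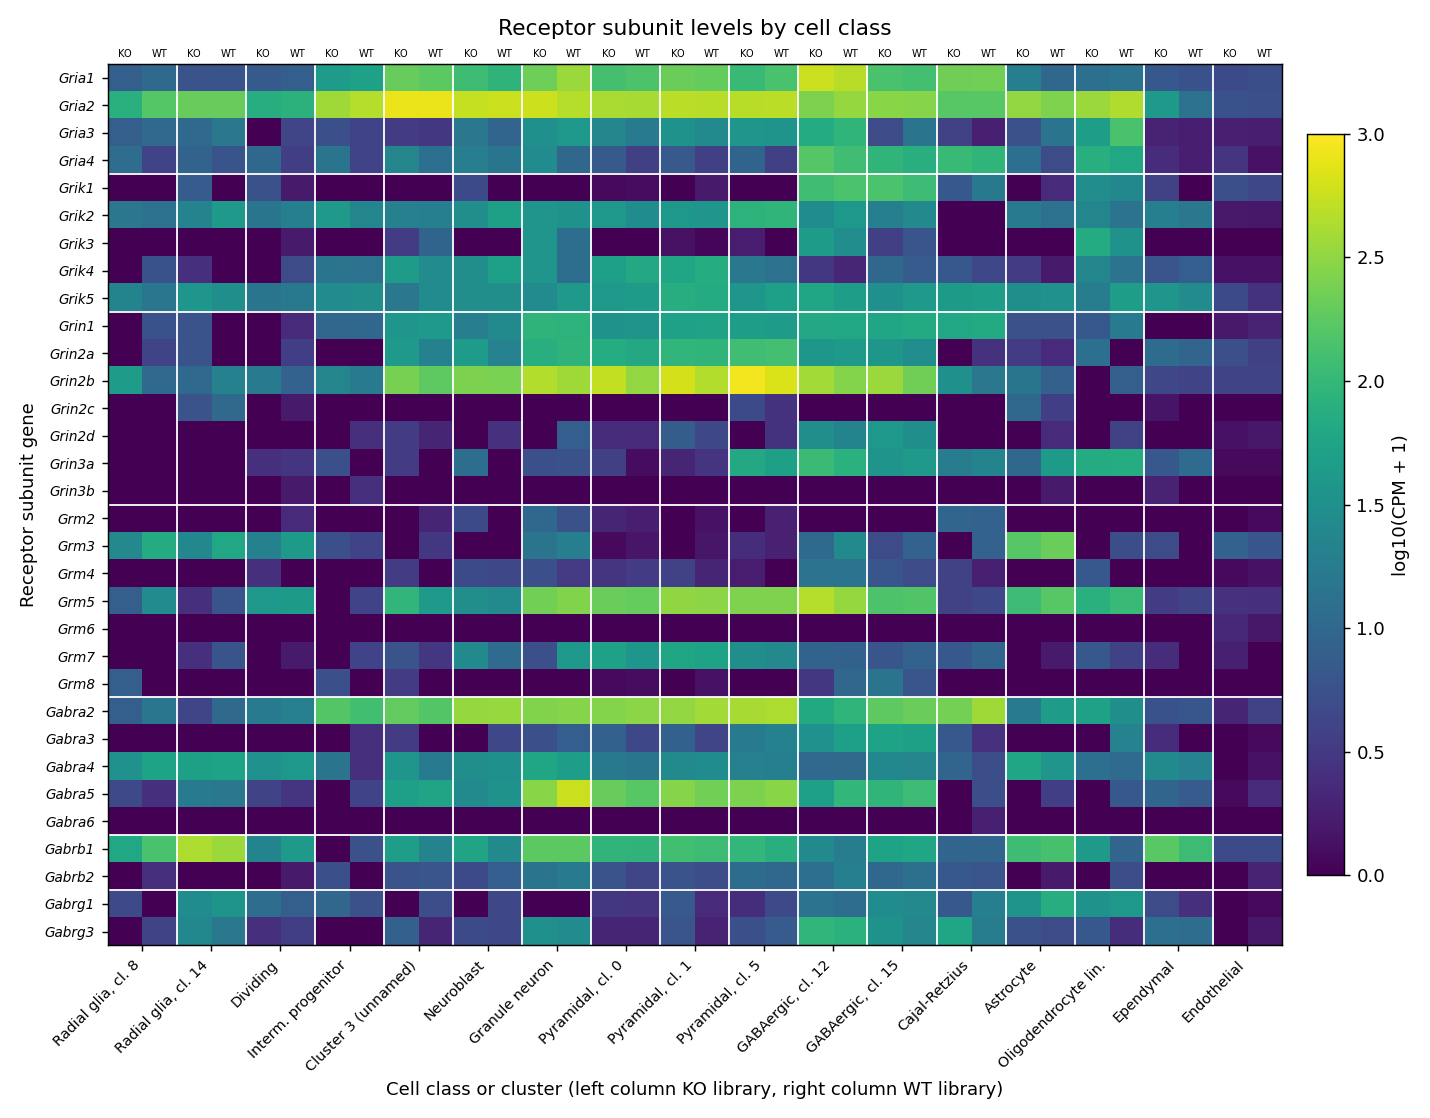
Level of the receptor subunit genes reported here (rows, grouped by family with white lines) in 17 cell classes or clusters (columns, KO left and WT right in each pair), as log10 of CPM plus 1. Gria2 and Grin2b are bright across neuron columns, Gabrb1 is bright in radial glia cluster 14 (423 CPM in KO, 348 CPM in WT), and the endothelial columns are dark.

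AMPA receptor genes were led by Gria2, the subunit that makes the channel impermeable to calcium. Gria2 (chr3:80681450-80802835, minus strand, mm10) reached 820 CPM in KO and 822 CPM in WT in cluster 3, and 813 and 930 CPM in pyramidal cluster 18, a small cluster marked by Htr2c and Spink8. Neuroblast-like cells had 545 CPM in KO and 579 CPM in WT. Intermediate progenitor-like cells, which have only begun neuronal differentiation, already had 370 CPM in KO and 460 CPM in WT, while dividing cells had 72.3 and 84.1 CPM. Pyramidal neuron-like cells as a class had 467 CPM in KO and 474 CPM in WT. Its promoter is shown because Gria2 had more WT UMIs (10041, against 7317 in KO) than any other member and is a known target of the repressor REST in rodents. The 250 bases before its start are chr3:80802836-80803085 (GRCm38.p6, minus strand, RefSeq), and capitals mark GGACAGC, a core of the RE1 element that REST binds, which lies on the other strand.
Gria2 promoter: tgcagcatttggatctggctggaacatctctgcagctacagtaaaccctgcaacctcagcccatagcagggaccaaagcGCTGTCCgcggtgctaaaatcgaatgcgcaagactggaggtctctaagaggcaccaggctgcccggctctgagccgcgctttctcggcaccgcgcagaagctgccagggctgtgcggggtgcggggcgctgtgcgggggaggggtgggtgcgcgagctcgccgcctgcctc
Both strands were searched for these 7 letters in the 250 bases before all 32851 starts of the RefSeq table, and 5.28% held them. Of the 24 members with a window, Gria2 and Grm2 did. A match of these letters is not evidence of binding.

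Gria1, the subunit typical of trafficked, activity-inserted receptors, led the family elsewhere. In GABAergic cluster 12, marked by Sst and Lhx6, it took 54.4% of AMPA receptor UMIs in KO (95% interval 51.9 to 56.9%) and 46.7% in WT (43.5 to 49.99%). It also led in Cajal-Retzius-like cells, with 44.6% in KO and 47.6% in WT. GABAergic cluster 15, marked by Adarb2 and Htr3a, kept Gria2 in the lead at 56.3% in KO and 56.6% in WT. Gria4, a subunit common in interneurons, took 15.2% and 11.9% in cluster 12, 17.1% and 15.5% in cluster 15, and 21.5% and 18.5% in Cajal-Retzius-like cells. In pyramidal neuron-like cells it took 1.17% in KO and 0.477% in WT. Gria3 was found in oligodendrocyte lineage cells, with 45.5 CPM in KO (8 UMIs) and 138 CPM in WT (96 UMIs), and in GABAergic cluster 12, with 68.5 and 90.4 CPM.

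**Figure D2:**
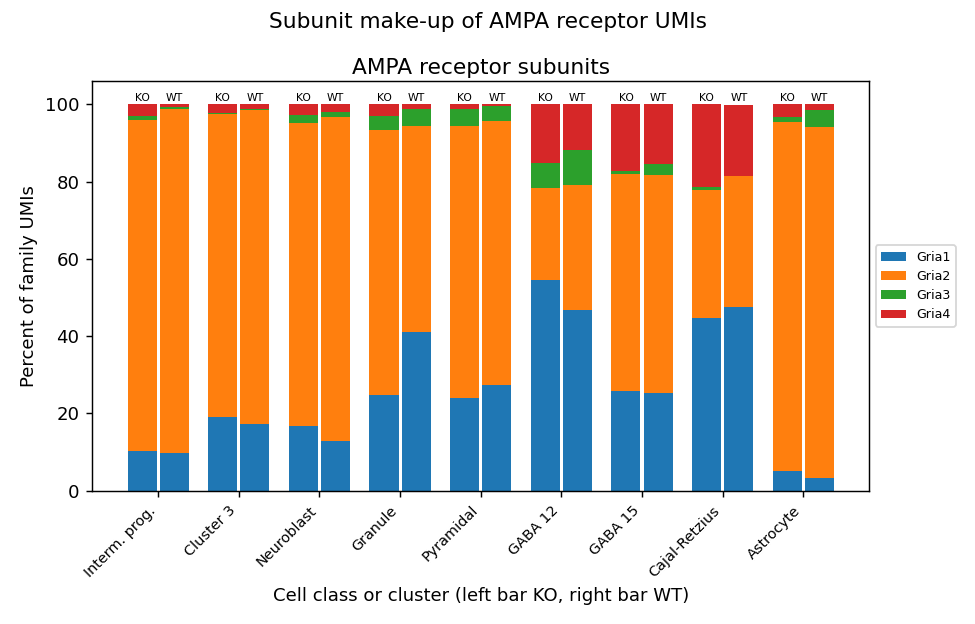
Share of each AMPA receptor subunit in the UMIs of its family, in percent, for 9 cell classes or clusters (KO bar left, WT bar right). Gria2 fills most of the bars from progenitors to pyramidal neurons, and Gria1 leads in GABAergic cluster 12 with 54.4% in KO and 46.7% in WT.

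Kainate receptor genes divided by neuron type. Grik1, the GluK1 subunit of interneurons, stood at 127 CPM in KO and 129 CPM in WT GABAergic neuron-like cells, and at 0.432 and 1.08 CPM (5 and 15 UMIs) in pyramidal neuron-like cells. Grik4, a high-affinity subunit typical of CA3, ran the other way, with 48.5 CPM in KO and 63.7 CPM in WT pyramidal neuron-like cells and 4.50 and 3.57 CPM in GABAergic neuron-like cells. Within the pyramidal neurons it was low in cluster 5, marked by Pou3f1 and Bcl11b (14.8 and 12.5 CPM), where Grik2, the main ion-conducting subunit, was highest (85.2 CPM in KO, 90.2 CPM in WT). Grik5, the other high-affinity subunit, was spread over both neuron types, with 53.2 CPM in KO and 59.97 CPM in WT pyramidal neuron-like cells and 49.5 and 44.0 CPM in GABAergic neuron-like cells. Grik3 was found in oligodendrocyte lineage cells (68.3 CPM in KO, 33.1 CPM in WT, 12 and 23 UMIs) and in GABAergic cluster 12 (44.7 and 28.3 CPM).

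Of the receptor genes with over 1000 UMIs in pyramidal neuron-like cells, the one with the widest difference between the libraries was Grin2b, the GluN2B subunit of NMDA receptors (ENSMUSG00000030209, chr6:135713233-136173511, minus strand). Pyramidal neuron-like cells had 7359 Grin2b UMIs in the KO library (636 CPM, 95% interval 622 to 651) and 6097 in the WT library (438 CPM, 428 to 450). The log2 ratio was 0.54 (ratio interval 1.40 to 1.501), above that of 95.5% of the 11475 genes with at least 50 UMIs there. GABAergic neuron-like cells had 834 UMIs in KO (375 CPM) and 425 in WT (253 CPM), a log2 ratio of 0.57 (ratio interval 1.32 to 1.67) and above 95.8% of genes. Both ratios lie just under the 1.5-fold line, so Grin2b is not among the genes called higher in either class.

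The difference had the same direction in each neuron cluster of at least 50 cells per library. Among pyramidal clusters, Grin2b stood at 534 CPM in KO and 326 CPM in WT in cluster 0, marked by Chodl and Grp (log2 0.71, past the 1.5-fold line). Cluster 1, marked by Slc17a7 and Nwd2, had 639 and 450 CPM (0.51), and cluster 5 had 888 and 678 CPM (0.39). GABAergic cluster 12 had 385 CPM in KO and 276 CPM in WT (0.48), and cluster 15 had 356 and 226 CPM (0.66, past the line). Among the younger cells, cluster 3 had 242 CPM in KO and 180 CPM in WT (0.43, ratio interval 1.04 to 1.73), and neuroblast-like cells had 256 and 248 CPM (0.05, ratio interval 0.763 to 1.38). The neuroblast ratio became 0.67 when 4000 variable genes were used for clustering, and differences between clusters were not tested. Endothelial-like cells had 3.11 CPM in KO and 3.08 CPM in WT. Microglia-like cells, also outside the neural lineage, had 142 CPM in KO (23 UMIs) and 6.02 CPM in WT (1 UMI). The source of these microglial UMIs, and their bearing on the neuron values, was not tested. Of the receptor genes counted in these clusters, 5 of 22 were higher and 0 lower in cluster 0 (7.02% higher and 6.39% lower of all genes), 5 of 25 and 0 in cluster 1 (6.26% and 7.09%), and 0 of 22 and 0 in cluster 5 (8.31% and 8.49%). In cluster 12, 1 of 28 was higher and 4 lower (8.29% and 7.68% of all genes), and in cluster 15, 2 of 23 and 0 (6.72% and 8.41%).

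**Figure D3:**
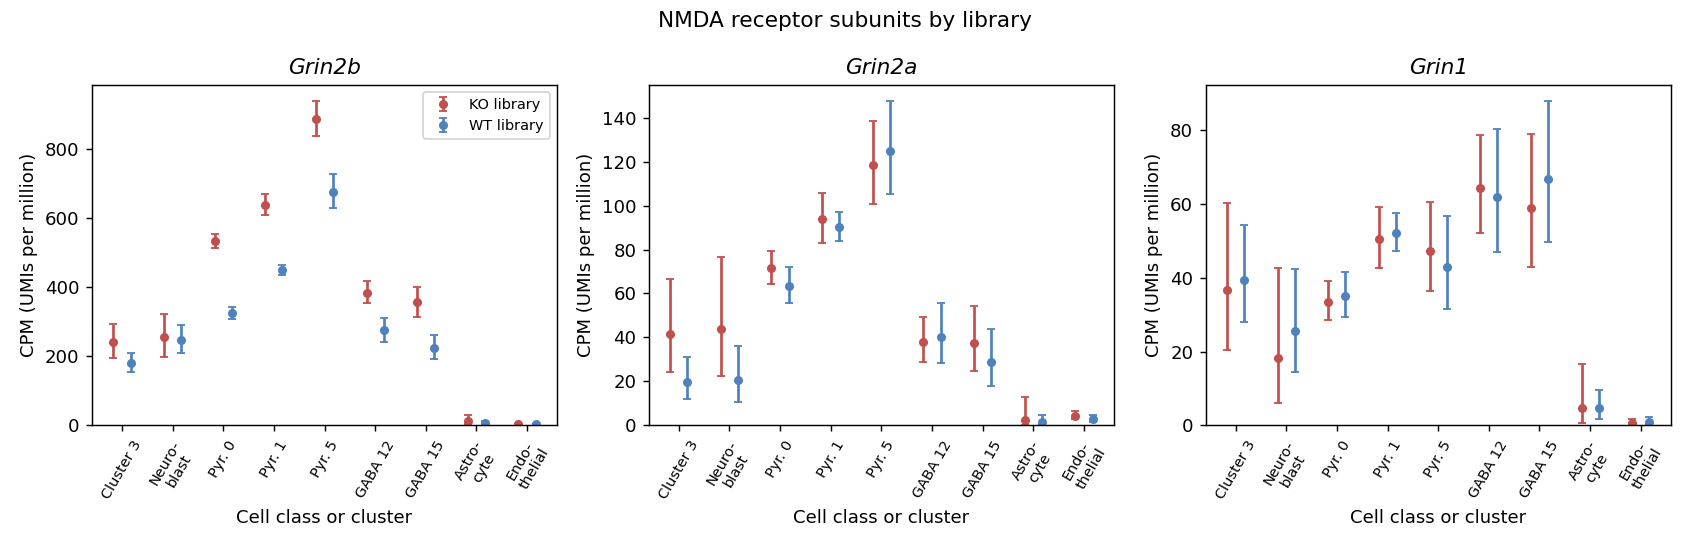
Levels of Grin2b, Grin2a and Grin1 in CPM (each gene in a panel with its own axis) in 9 cell classes or clusters, KO points left in red and WT points right in blue, with bars for the 95% counting interval. Grin2b bars of the libraries are apart in all 3 pyramidal and both GABAergic clusters, from 888 CPM in KO and 678 CPM in WT in cluster 5 to 356 and 226 CPM in cluster 15, whereas those of Grin2a and Grin1 overlap in every class shown.

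Grin2a and Grin1 had ratios nearer to 1 or on the lower side. In pyramidal neuron-like cells Grin2a had 85.8 CPM in KO and 88.02 CPM in WT (log2 -0.04), and Grin1, the obligatory subunit, had 40.5 and 48.5 CPM (-0.26, ratio interval 0.742 to 0.942). In GABAergic neuron-like cells Grin2a had 37.8 and 35.1 CPM (0.10) and Grin1 had 62.6 and 64.3 CPM (-0.04). Grin2b thus took 87.7% of GluN2 UMIs in KO pyramidal neuron-like cells (87.0 to 88.4%) and 82.8% in WT (81.9 to 83.7%), and 84.2% and 80.6% in GABAergic neuron-like cells. Cells were also thinned to 2000 UMIs each to compare how many had a Grin2b UMI. The share was 72.5% of 601 KO and 55.1% of 761 WT pyramidal neuron-like cells, and 46.8% of 139 KO and 36.6% of 145 WT GABAergic neuron-like cells. In endothelial-like cells it was 1.46% of 205 in KO and 0 of 215 in WT. Median depths before thinning were 17406 and 16217 UMIs in pyramidal, 13244 and 11252 UMIs in GABAergic and 20044 and 22251 UMIs in endothelial-like cells. Without thinning the shares were 98.7% and 96.2% in pyramidal and 87.8% and 81.3% in GABAergic neuron-like cells.

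Several other measures differed between the same cells. Median depth in cluster 0 was 21460 UMIs in KO and 15090 in WT. Among pyramidal neuron-like cells of 5000 to 20000 UMIs, the Grin2b ratio was 0.70 (log2), but in GABAergic neuron-like cells of that depth it was 0.26. The 10 neuroblast markers summed to 4057 CPM in KO and 3232 CPM in WT pyramidal neuron-like cells, with 1 of them at 0 in KO and 0 in WT, and the 15 general neuron markers to 12306 and 13390 CPM. The part of cell maturity in the Grin2b difference was not tested. By sex, WT pyramidal neuron-like cells that had Xist but lacked Y-linked UMIs had 441 Grin2b CPM, those with Y-linked UMIs but without Xist had 404 CPM, and all KO cells together had 636 CPM. Cluster 11, mostly of KO cells (159, against 28 WT), gave 685 and 406 CPM, and the class ratio without it was 0.51.

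Less abundant NMDA receptor genes differed in level between cell types. Grin3a, whose GluN3A subunit lowers calcium entry and is typical of immature synapses, reached 111 CPM in KO and 81.7 CPM in WT in GABAergic cluster 12, 63.0 and 49.998 CPM in pyramidal cluster 5, and 68.3 and 70.6 CPM in oligodendrocyte lineage cells. Grin2d was mostly a gene of GABAergic neuron-like cells, with 32.4 CPM in KO and 25.6 CPM in WT against 2.94 and 2.80 CPM in pyramidal neuron-like cells. Grin2c had 13 UMIs in KO and 9 in WT over all cells, and Grin3b 2 and 3. Cajal-Retzius-like cells had Grin1 at 62.4 and 67.4 CPM but Grin2b at only 31.2 CPM in KO (11 UMIs) and 14.5 CPM in WT (17 UMIs), far below other neurons.

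Metabotropic receptor genes were led by Grm5, a group I receptor coupled to phospholipase C, with 254 CPM in KO and 268 CPM in WT pyramidal neuron-like cells. In GABAergic cluster 12 it reached 464 CPM in KO and 333 CPM in WT. Grm3, a group II receptor of glia, marked astrocyte-like cells with 167 CPM in KO and 204 CPM in WT, against 0.259 and 0.575 CPM in pyramidal neuron-like cells. Grm7, a presynaptic group III receptor, was a pyramidal gene (53.2 CPM in KO, 46.5 CPM in WT), at 7.20 and 7.74 CPM in GABAergic neuron-like cells. The group III genes Grm4 (60 and 41 UMIs over all cells), Grm8 (22 and 17) and Grm6 (7 and 3), and Grm2 (13 and 23), were close to the floor.

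The make-up of GABA-A alpha UMIs in granule neuron-like cells differed from that in progenitors and young neurons, where Gabra2 led. Gabra2 took 92.1% of alpha UMIs in KO and 95.3% in WT intermediate progenitor-like cells, 85.8% and 83.3% in neuroblast-like cells and 68.1% and 67.7% in cluster 3. Granule neuron-like cells instead had Gabra5, whose receptors sit largely outside synapses, at 45.8% in KO (37.4 to 54.3%) and 59.6% in WT (54.7 to 64.3%). Pyramidal neuron-like cells used both, with Gabra2 at 52.1% and 57.6% and Gabra5 at 40.1% and 35.6%. Gabra3 was a gene of GABAergic neuron-like cells, with 13.3% in KO and 13.1% in WT. Gabra6, a gene of cerebellar granule cells, had 0 UMIs in KO and 1 in WT.

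Among beta genes Gabrb1 took 95.5% of UMIs in KO and 98.7% in WT radial glia-like cells, 96.2% in astrocyte-like cells of both, and 84.9% and 85.3% in ependymal-like cells. Gabrb2 stayed at 5.96 CPM in KO and 4.53 CPM in WT pyramidal neuron-like cells. The gamma gene Gabrg1 was found in astrocyte-like cells, with 34.4 CPM in KO (15 UMIs) and 72.8 CPM in WT (111 UMIs). Similar KO levels were found in oligodendrocyte lineage cells (34.2 and 38.9 CPM), radial glia cluster 14 (27.4 and 34.8 CPM) and GABAergic cluster 15 (28.1 and 24.9 CPM). Gabrg3 stood at 72.5 and 54.1 CPM in GABAergic neuron-like cells, with 92.2 and 80.6 CPM in cluster 12 but 33.5 and 22.3 CPM in cluster 15. Pyramidal cluster 18 (65.8 and 29.7 CPM) and granule neuron-like cells (31.3 and 27.1 CPM) also had it. Cajal-Retzius-like cells had 56.7 and 17.1 CPM (20 UMIs in each library).

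In radial glia-like cells, where Gabrb1 led the beta genes, Gabra4 took 72.7% of alpha UMIs in KO and 73.8% in WT. Gabra4 encodes an alpha subunit of extrasynaptic receptors. Gabra4 and Gabrb1 lie head to head on chromosome 5, and their gene models share 196 bases. Their promoter windows are shown because both genes had UMIs in radial glia-like and ependymal-like cells, summed over each class. Whether the same cells held both was not tested. The windows are chr5:71658309-71658558 for Gabra4 (minus strand), chr5:71657671-71657920 for Gabrb1 (plus strand) and chr5:71699682-71699931 for an alternative start of Gabrb1 (GRCm38.p6, RefSeq). Capitals spell the motif of the factor NRF1 that was searched, which reads the same on both strands.
Gabra4 promoter: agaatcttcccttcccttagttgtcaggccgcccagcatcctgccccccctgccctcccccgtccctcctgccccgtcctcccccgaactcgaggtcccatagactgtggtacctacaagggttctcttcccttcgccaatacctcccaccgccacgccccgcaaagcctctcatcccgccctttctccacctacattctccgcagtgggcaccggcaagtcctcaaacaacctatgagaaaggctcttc
Gabrb1 promoter: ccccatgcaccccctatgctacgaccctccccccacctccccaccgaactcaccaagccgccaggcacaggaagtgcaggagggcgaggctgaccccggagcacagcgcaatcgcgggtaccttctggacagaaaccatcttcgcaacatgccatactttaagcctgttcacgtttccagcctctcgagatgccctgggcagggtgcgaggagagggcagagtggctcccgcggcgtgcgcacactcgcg
Gabrb1 alternative promoter: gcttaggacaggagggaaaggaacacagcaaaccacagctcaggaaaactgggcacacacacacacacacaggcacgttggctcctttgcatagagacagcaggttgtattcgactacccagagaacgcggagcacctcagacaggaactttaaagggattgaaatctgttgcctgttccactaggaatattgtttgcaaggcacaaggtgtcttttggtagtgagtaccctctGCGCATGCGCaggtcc
The windows of the first starts of the pair are separated by 388 bases, which lie downstream of both starts. The 196 shared bases are those of the GENCODE models, where Gabrb1 starts at 71658113. The motif lies 16 bases before the alternative start, in 1 of the 31 member windows, and 0.782% of all windows held it. The median member window had 9 CG dinucleotides, against 6 in all windows. The letters alone show neither a bound site nor which start these cells use, since the reads cover 3′ ends.

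The 1.5-fold line was applied to each receptor gene in each class. In pyramidal neuron-like cells 28 of the 36 had at least 20 UMIs, of which 6 were higher in KO, 1 was lower and 21 lay within. Grik3, Grm2, Grm3, Grm6, Grm8, Grin2c, Grin3b and Gabra6 had fewer and were not counted. Among all 12918 genes counted there, 5.54% were higher and 7.57% lower. The median log2 ratio was 0.07 for the receptor genes and -0.03 for all genes. In GABAergic neuron-like cells 30 were counted, with 1 higher, 2 lower and 27 within, against 6.12% higher and 6.83% lower of 9926 genes, and medians of 0.04 and -0.03.

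**Figure D4:**
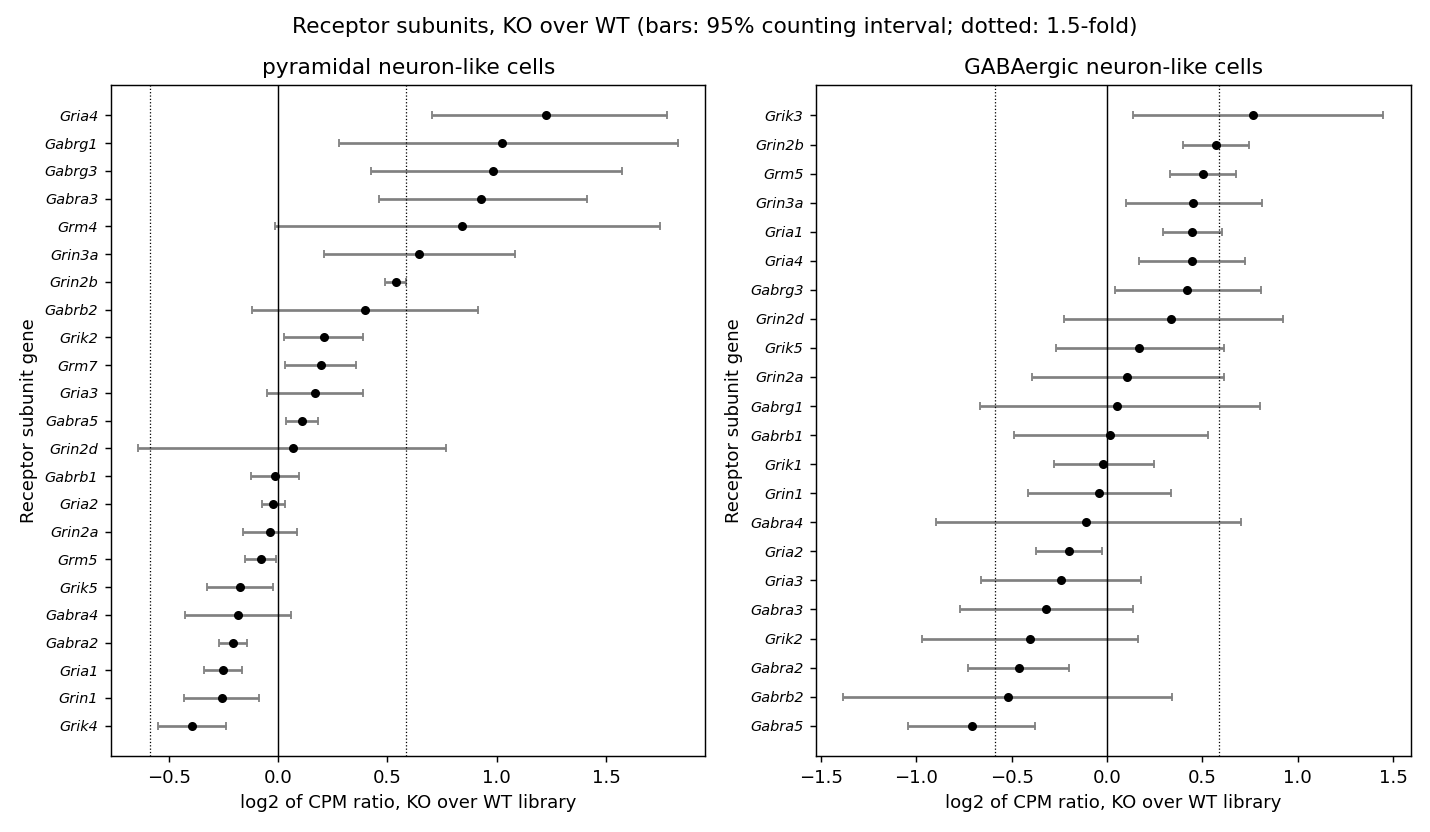
Log2 ratio of CPM, KO over WT library, for the receptor subunit genes reported here with at least 50 UMIs in pyramidal neuron-like cells (left) and GABAergic neuron-like cells (right), with bars for the 95% counting interval and dotted lines at 1.5-fold. Grin2b lies just inside the upper line on both sides with a short bar (log2 0.54 and 0.57), and the genes beyond it, such as Gria4 at 1.23 on the left and Grik3 at 0.76 on the right, have long bars.

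The 6 genes higher in KO pyramidal neuron-like cells were all of low level there. Gria4 had 7.78 CPM in KO and 3.31 CPM in WT (90 and 46 UMIs, log2 1.23, ratio interval 1.63 to 3.43). Gabra3 had 8.64 and 4.53 CPM (0.93), Gabrg3 6.14 and 3.09 CPM (0.98), Gabrg1 3.54 and 1.73 CPM (1.03), Grin3a 8.99 and 5.75 CPM (0.64) and Grm4 2.59 and 1.44 CPM (0.84, an interval that held 1). Most of these were higher in GABAergic than in pyramidal neuron-like cells. Gabrg1 had 18.0 and 17.3 CPM there, but 34.4 and 72.8 CPM in astrocyte-like cells. The 17 GABAergic markers summed to 8.73 CPM in KO and 17.5 CPM in WT pyramidal neuron-like cells, with 1 marker at 0 in each. The part of RNA from GABAergic cells in these ratios was not tested. For Gabrg3, 40 of the 71 KO and 18 of the 43 WT UMIs came from cluster 18 (32 KO and 63 WT cells). When clusters of the class were weighted alike, 3 genes in place of 6 were higher. Grik1 was the gene called lower, on 5 and 15 UMIs.

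Abundant genes of pyramidal neuron-like cells stayed within the line but had intervals clear of 1 on the lower side. They were Grik4 (log2 -0.39), Grin1 (-0.26), Gria1 (160 CPM in KO, 190 CPM in WT, -0.25), Gabra2 (312 and 360 CPM, -0.21), Grik5 (-0.17) and Grm5 (-0.08). The libraries fill the clusters in different proportions, and within clusters 0, 1 and 5 the ratios were -0.16, 0.10 and -0.37 for Gria1, -0.10, -0.24 and -0.09 for Gabra2, and 0.13, 0.05 and -0.01 for Grm5. The class ratio of Gabra2 became 0.011 among cells of 5000 to 20000 UMIs, and that of Grm5 became 0.050 against the WT cells with Y-linked UMIs but without Xist. Gria2 (-0.02) and Gabrb1 (-0.01) had intervals that held 1. Gabra5 stood at 240 CPM in KO and 223 CPM in WT (0.11, ratio interval 1.02 to 1.14), with 0.29, 0.32 and -0.20 in the same clusters.

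In GABAergic neuron-like cells Grin2b was joined by Grm5 at 357 CPM in KO and 252 CPM in WT (log2 0.50), Gria1 at 431 and 317 CPM (0.45), Gria4 at 138 and 101.2 CPM (0.44) and Grin3a at 85.5 and 62.5 CPM (0.45). Grik3 was past the line with 30.6 CPM in KO and 17.9 CPM in WT (0.76, ratio interval 1.10 to 2.73), a call lost with the stricter cell filter and with clusters weighted alike, where 0 genes were higher. On the lower side were Gabra5, with 63.0 CPM in KO and 103 CPM in WT (-0.71, ratio interval 0.486 to 0.769), Gabra2 with 104 and 144 CPM (-0.46) and Gria2 with 269 and 308 CPM (-0.20). Grm3, with 17 and 30 UMIs, was the second gene called lower. The Grm5 and Gabra5 differences were those of cluster 12 (0.48 and -0.96), while in cluster 15 they were -0.10 and -0.31 with intervals that held 1. Cluster 12 gave 1475065 of the 2221399 KO UMIs of the class and 918249 of the 1680532 WT UMIs. The part of this uneven mix in the Gria1 and Gria4 ratios was not tested. The 17 GABAergic markers summed to 4570 CPM in KO and 5545 CPM in WT cells of the class.

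Cluster 3, with Prox1 among its leading genes, had 16 receptor genes counted, of which 6 were higher and 1 lower, against 9.85% higher and 11.4% lower of 7328 genes. Grm5 stood at 92.8 CPM in KO and 39.6 CPM in WT (38 UMIs in each, log2 1.23, ratio interval 1.46 to 3.78). Grin2a (17 and 19 UMIs), Gabra4 (15 and 16) and Gabrb1 (19 and 20) had ratios of 1.07, 1.14 and 1.16. Gria2 was level (0.00). In neuroblast-like cells 14 were counted, 2 higher and 2 lower, against 8.28% higher and 13.1% lower of 5824 genes, and Gria2 (-0.09) and Gabra2 (-0.04) had intervals that held 1.

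Among glial classes, astrocyte-like cells (80 KO and 266 WT) had 12 receptor genes counted, 2 higher and 4 lower, against 10.5% higher and 11.1% lower of 8371 genes. Grin3a stood out with 9.17 CPM in KO (4 UMIs) and 42.0 CPM in WT (64 UMIs), a log2 ratio of -2.04 (ratio interval 0.0577 to 0.587). Gabra2 had 16.05 CPM in KO (7 UMIs) and 44.6 CPM in WT (68 UMIs, -1.39), Gabrg1 was at -1.04 and Grm5 at -0.55, while Gria2 had 326 and 264 CPM (0.31, ratio interval 1.01 to 1.498). Astrocyte markers summed to 5370 CPM in KO and 7142 CPM in WT, none of the 14 at 0, and oligodendrocyte lineage markers to 2132 and 1965 CPM, with 5 of 14 at 0 in KO and 4 in WT. Their part in these differences was not tested.

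Radial glia-like cells (156 KO and 194 WT) had 10 genes counted, 5 higher and 2 lower, against 14.2% higher and 12.7% lower of 8669 genes, but their clusters were unevenly filled. The 5 higher became 1 with the looser or the stricter cell filter, with at least 50 UMIs per gene and with clusters weighted alike. Cluster 8, led by Pdlim3, Thrsp and Tfap2c, had 51 KO and 144 WT cells, and cluster 14, with Entpd2 and Fbln2, 105 and 50. Gabrb1 had 311 CPM in KO and 188 CPM in WT over the class (log2 0.72), yet 60.9 and 137 CPM in cluster 8 (-1.14, ratio interval 0.247 to 0.751) and 423 and 348 CPM in cluster 14 (0.27, ratio interval 0.930 to 1.60). Weighting the clusters alike gave -0.43 for the class. Gria2 in cluster 8 stood at 78.9 CPM in KO and 161 CPM in WT (-1.01). Grm3 was lower in both clusters, with 24.5 CPM in KO and 67.1 CPM in WT over the class (-1.44, ratio interval 0.212 to 0.607). Haemoglobin and other erythroid markers summed to 54.5 CPM in KO and 9257 CPM in WT radial glia-like cells, and their part was not tested.

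Dividing cells had Grm3 at 19.99 CPM in KO and 42.0 CPM in WT (log2 -1.03) and Gabrb1 at 21.5 and 39.5 CPM (-0.84), with 1 higher and 2 lower of 9 genes counted, against 8.04% higher and 11.7% lower of 8716 genes. Ependymal-like cells had Gria2 at 39.5 CPM in KO and 12.4 CPM in WT (1.63, ratio interval 1.85 to 5.82) and Gabrb1 at 171 and 113 CPM (0.60), with 3 higher and 1 lower of 11 genes, against 9.85% higher and 7.11% lower of 10967 genes. Radial glia markers in ependymal-like cells summed to 5499 CPM in KO and 3431 CPM in WT, none of the 17 at 0, and this was not tested as a part of the difference. Endothelial-like cells had 9 genes counted, of which 2 were higher and 1 lower, against 4.3% and 5.42% of 11361 genes.

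Partner genes of the receptors were compared in the same way in pyramidal neuron-like cells. Among all genes in that class 5.54% were higher and 7.57% lower, with a median log2 ratio of -0.03. Of 17 AMPA and kainate receptor auxiliary subunits, 15 were counted, 1 higher and 3 lower, with a median of 0.04. Shisa9, which tunes AMPA receptor desensitisation, had 22.4 CPM in KO and 11.1 CPM in WT (log2 1.004), Cacng2, the stargazin gene that carries AMPA receptors to synapses, had 26.4 and 47.1 CPM (-0.83), and Neto1, a kainate receptor partner, had 10.3 and 19.9 CPM (-0.95). All 22 postsynaptic scaffold genes and all 12 GABA-A receptor partners lay within the line. The scaffold genes farthest from 1 were Camk2a, a kinase that rises as synapses mature, with 210 CPM in KO and 295 CPM in WT (-0.49), and Shank2, a scaffold protein of excitatory synapses, with 22.6 and 15.2 CPM (0.57). Within clusters 0, 1 and 5 Camk2a was at -0.09, -0.16 and 1.53, so the class value lay below all 3, while Shank2 was at 0.78, 0.75 and 0.76. Of the 12 other glutamate and GABA receptor subunits, 5 were counted and 1 was lower, with the GABA-B genes Gabbr1 (-0.15) and Gabbr2 (-0.11) within.

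Genes of transmitter supply and transport had 0 higher and 4 lower of 12 counted, with a median log2 ratio of -0.23, against 5.54% higher, 7.57% lower and a median of -0.03 for all genes. Slc17a6, the vesicular glutamate transporter VGLUT2 of early neurons, had 3 UMIs in KO (0.259 CPM) and 196 in WT (14.1 CPM), a ratio interval of 0.00376 to 0.0546. Few KO UMIs were likewise found in clusters 0 (1 and 52 UMIs), 1 (2 and 76 UMIs) and 5 (0 and 52 UMIs), and in neuroblast-like cells (1 and 27 UMIs). Slc17a7, the transporter VGLUT1 that follows it, had 109 CPM in KO and 239 CPM in WT (-1.13), with -0.47, -0.64 and 0.14 in clusters 0, 1 and 5. Slc1a3 and Glul, genes of glial glutamate uptake and glutamine synthesis, were at -1.11 and -0.51 in these neurons. In GABAergic neuron-like cells, where 6.12% of all genes were higher and 6.83% lower, none of the 15 counted auxiliary subunits was higher and 1 was lower, and of the 17 counted scaffold genes 2 were higher, Dlg4, the PSD-95 gene, with 102 and 60.7 CPM (0.75) and Shank2 (0.96).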

How the data were processed

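Single-cell 3′ libraries (10x Chromium) were made from 1 pool of 2 animals per genotype. The matrices deposited by the authors hold raw UMI counts, as whole numbers without normalization. Per the file headers and the submitters' processing notes they came from Cell Ranger 3.0.2, and the notes also name Seurat 3 and mm10 with no role given. No column of per-sample values was left unused (0).

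Barcodes were kept from 500 genes and 1000 UMIs upward if mitochondrial genes took no more than 10% (1967 of 2292 KO, 3029 of 3555 WT). Scrublet called 18 KO and 11 WT barcodes (0.785% and 0.309%), which is too few in WT to rely on, so the highest-scoring 0.8% per 1000 barcodes were removed (36 KO, 72 WT). Cells were scaled to 10000 UMIs and clustered with scanpy 1.11.5 and leidenalg 0.10.2 (2000 variable genes, 30 components, 15 neighbours, resolution 1). The 142 genes kept out of the clustering include the receptor genes, their partner lists, and sex-linked, haemoglobin and mitochondrial genes. The 29 clusters were named from 19 marker lists where at least 3 markers were detected in at least 10% of cells at 1.5-fold, and 4 stayed unnamed. Names are rebuilt here and may differ from those of the study.

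UMIs were summed per library and class, and given as CPM with exact Poisson intervals. Ratios add 0.5 UMI to each sum and carry exact binomial intervals, and shares carry Clopper-Pearson intervals (scipy 1.17.1, 95%). Ratios were compared in classes with at least 50 cells per library. No test was run between genotypes. The ratio code was checked on simulated counts. Alternatives included TMM factors (edgeR 4.0.16 in R 4.3.3), a loose cell filter (200 genes only) and a stricter one (1000 genes, 2000 UMIs, 5% mitochondrial), other clusterings and UMI minimums, cells by sex, and 3 added after seeing the data. Of each family, up to 3 genes by level were named per class described. For ratios, genes with at least 50 UMIs were named, up to 6 per direction, ranked by the interval bound nearest 1, plus the most abundant of each family; others were named after their values were seen. The members and lists were chosen with earlier results of these data known. Promoter windows came from the RefSeq table (GRCm38.p6), which matched 24 of the 36 genes, and gene models from GENCODE on mm10. Results for some of the genes are not reported here, although sums and counts over all 36 include them.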

Additional observations from a re-analysis of the deposited data

Results flagged for a closer look

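Several receptor genes had log2 ratios of opposite sign, with counting intervals clear of 1, in different cell classes of the same pair of libraries. None of these differences between classes was tested, since each genotype has 1 library. Gabra5 was at 0.11 in pyramidal neuron-like and -0.71 in GABAergic neuron-like cells. Gria1 was at 0.45 in GABAergic neuron-like and -0.25 in pyramidal neuron-like cells. Signs were mixed within pyramidal clusters 0, 1 and 5, at 0.29, 0.32 and -0.20 for Gabra5 and -0.16, 0.10 and -0.37 for Gria1. Grm5 was at 0.50 in GABAergic neuron-like cells and 1.23 in cluster 3, against -0.08 in pyramidal neuron-like and -0.55 in astrocyte-like cells. The pyramidal Grm5 value became 0.050 against WT cells with Y-linked UMIs but without Xist, and was 0.13, 0.05 and -0.01 within clusters 0, 1 and 5. In GABAergic clusters 12 and 15 Grm5 was at 0.48 and -0.10, the latter with an interval that held 1. Gria2 was at 0.31 in astrocyte-like and 1.63 in ependymal-like cells, against -0.20 in GABAergic neuron-like cells. Grin3a was at 0.64 in pyramidal and 0.45 in GABAergic neuron-like cells, against -2.04 in astrocyte-like cells. Gabrg1 was at 1.03 in pyramidal neuron-like and -1.04 in astrocyte-like cells. Within pyramidal clusters 0, 1 and 5 it was 0.11 (10 and 7 UMIs), 2.14 (17 and 10 UMIs) and -1.12 (2 and 4 UMIs). Gabrb1 was at 0.60 in ependymal-like and 0.72 in radial glia-like cells, against -0.84 in dividing cells. The radial glia value became -0.43 with its clusters weighted alike, and within clusters 8 and 14 it was -1.14 and 0.27.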

How the results depend on the processing

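Over 20 alternative settings, 1118 of 1261 recomputed values stayed within the spread or count range allowed and 140 moved beyond it. The other 3, all ratios of single genes, were counted as sign changes. Medians over genes that changed sign, given below, were counted among the 140. No paired analysis was possible because each genotype has 1 library, and for the same reason no library could be left out. The log2 ratio of Grin2b stayed between 0.50 and 0.70 in pyramidal neuron-like cells and between 0.26 and 0.73 in GABAergic neuron-like cells. In neuroblast-like cells it reached 0.67 with 4000 variable genes, against 0.05. Scaling factors moved the median of all genes by less than 0.1 on the log2 scale. The causes of the shifts below were not tested, beyond what fewer cells or genes bring by construction.

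The 3 single-gene ratios counted as sign changes were Gabrb1 in radial glia-like cells (-0.43 with clusters weighted alike), Gabra2 in pyramidal neuron-like cells (0.011 among cells of 5000 to 20000 UMIs) and Grm5 in pyramidal neuron-like cells (0.050 against WT cells with a Y-linked UMI and no Xist).

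In pyramidal neuron-like cells, 3 genes in place of 6 were higher with clusters weighted alike and against WT cells with a Y-linked UMI. The 1 lower gene became 0 with the stricter cell filter, without doublet removal, with KO thinned to the WT depth, at 50 UMIs per gene and in all 3 added alternatives, and became 3 at 1 UMI per gene. In GABAergic neuron-like cells, the 1 higher gene became 0 with the stricter filter or clusters weighted alike, 2 with the loose filter, TMM, median of ratios or mean fraction per cell, 4 among cells of 5000 to 20000 UMIs and 3 against WT cells with a Y-linked UMI. The 2 lower genes became 1 without doublet removal, at 50 UMIs per gene and against WT cells with a Y-linked UMI, 5 among cells with Xist and 4 by mean fraction per cell.

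In neuroblast-like cells, the 2 higher genes became 5 with 4000 variable genes (median log2 ratio 0.35), 1 with KO thinned, 0 at 50 UMIs and 7 at 1 UMI. The 2 lower genes became 1 without doublet removal, at resolution 2 and with 4000 variable genes, 0 at 50 UMIs and 5 at 1 UMI. In radial glia-like cells, the 5 higher genes became 1 with the loose or stricter filter, at 50 UMIs and with clusters weighted alike, 2 at resolutions 0.5 and 2, 3 with 4000 variable genes, KO thinned or mean fraction per cell, and 10 at 1 UMI. The 2 lower genes became 4 without doublet removal, 1 at resolutions 0.5 and 2, among cells with Xist and at 50 UMIs, and 8 at 1 UMI. The median there, 0.34, became -0.056 with the loose filter, -0.0067 with the stricter filter, 0.088 without doublet removal, 0.060 at resolution 2, 0.20 with 4000 variable genes, -0.041 with KO thinned, 0.57 among cells with Xist, -0.17 at 50 UMIs, -0.058 at 1 UMI and -0.38 with clusters weighted alike.

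In astrocyte-like cells, the 2 higher genes became 1 with the loose filter, with 4000 variable genes, at 50 UMIs and with clusters weighted alike, 0 with KO thinned and among cells with Xist, and 7 at 1 UMI. The median there, -0.23, became -0.034 without doublet removal, -0.47 among cells with Xist, 0.22 at 1 UMI, -0.48 by mean fraction per cell and -0.48 against WT cells with a Y-linked UMI.

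The Grin2b share of GluN2 UMIs in KO GABAergic neuron-like cells became 81.4% with the stricter filter and 80.4% among cells of 5000 to 20000 UMIs, and in WT became 76.0% among cells with Xist. The share of pyramidal neuron-like cells with a Grin2b UMI was 98.7% in KO and 96.2% in WT without thinning, and 91.7% and 78.9% at 4000 UMIs. In GABAergic neuron-like cells it was 87.8% and 81.3%, and 78.5% and 57.1%.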

Other observations

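Microglia-like cells (25 KO and 42 WT) had 77 receptor UMIs in KO (476 CPM) and 16 in WT (96.3 CPM). Of these, Grin2b gave 23 UMIs in KO and 1 in WT, 142 and 6.02 CPM. The unnamed cluster 17 (71 KO and 25 WT cells), led by Wnt8b, Lmx1a and Rspo3, had Gabrb1 at 597 CPM in KO (282 UMIs) and 493 CPM in WT (79 UMIs). Pyramidal cluster 18 had summed receptor levels of 4104 CPM in KO and 4293 CPM in WT.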
